A study of Mus musculus with 170 samples.

Results

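In the ventricular part of control mouse hearts at embryonic day 9.5, 23 endothelial-like cells and 29 cardiomyocyte-like (CM-like) cells were compared gene by gene. These 52 cells were chosen from 74 control cells by their own transcript levels. A cell was called endothelial-like where the mean log2(TPM + 1) of 10 endothelial genes (Cdh5, Emcn, Kdr, Tek, Tie1, Cd93, Ramp2, Icam2, Plvap and Esam) was at least 3. It was called CM-like where that mean was below 3 and the mean of 15 cardiomyocyte genes (Tnnt2, Myl4, Myl7, Actc1, Tnnc1, Tnni1, Myh6, Myh7, Ttn, Myl3, Actn2, Ryr2, Nebl, Smpx and Csrp3) was at least 8.5. TPM is a transcript level scaled for transcript length and for the total of each cell. The other 22 control cells met neither rule.

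The control embryos, labelled wild type and of strain C57BL/6, carried Dgcr8 loxP/loxP and ROSA26 mTmG/+ and no Cre allele. Dgcr8 and the reporter were therefore unrecombined in every cell compared. The conditional knockout (cKO) of the same study, which deletes Dgcr8 in Mesp1 progeny, entered no comparison here: of 69 cKO cells 68 met the CM-like rule and 0 the endothelial-like rule, with a highest endothelial mean of 1.11. Dissected ventricles were dissociated enzymatically, single cells were picked by hand, and full-length cDNA was made with Smart-seq2 and sequenced in 2 batches. The study left out cells whose reporter signal was at odds with their genotype. No source used here ties a cell to an embryo. All control cells were therefore treated as 1 sample, the SD given with each mean is the spread between cells, and no test of the difference was made.

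At this stage the ventricle is a tube of 2 tissues in contact. The inner endocardium is a specialised endothelium, and the outer myocardium is the contracting muscle. Between them lies cardiac jelly, a matrix rich in hyaluronan and proteoglycans. The endocardium and myocardium signal to each other through neuregulin, Notch, BMP, angiopoietin and endothelin pathways as trabeculae form. ETS, SOX and GATA factors are known regulators of endothelial genes. MEF2 and SRF, which binds the CArG box, are known regulators of sarcomere genes.

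Stretches of 5 promoters of genes used by the rule are shown because they hold an exact match to a motif of those factor families. All are from RefSeq on GRCm38.p6, printed in the direction of the gene, with the match in capitals. Emcn and Tie1 encode endothelial surface proteins and hold the ETS motif CNGGAAG, read on either strand. Myl7, Myl3 and Actc1 encode sarcomere proteins and hold a CArG box. The stretches lie at chr3:137340857-137340956 on the plus strand (Emcn), chr4:118489883-118489982 on the minus strand (Tie1), chr11:5898789-5898888 on the minus strand (Myl7), chr9:110763548-110763647 on the plus strand (Myl3) and chr2:114052868-114052967 on the minus strand (Actc1).
Emcn: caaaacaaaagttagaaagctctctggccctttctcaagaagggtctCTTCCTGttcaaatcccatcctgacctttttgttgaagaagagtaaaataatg
Tie1: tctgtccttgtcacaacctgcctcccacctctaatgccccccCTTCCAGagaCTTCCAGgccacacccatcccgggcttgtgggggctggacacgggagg
Myl7: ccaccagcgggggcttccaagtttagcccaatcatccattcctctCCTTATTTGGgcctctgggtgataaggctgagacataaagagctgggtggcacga
Myl3: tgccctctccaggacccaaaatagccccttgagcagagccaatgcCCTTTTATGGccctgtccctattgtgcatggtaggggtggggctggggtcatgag
Actc1: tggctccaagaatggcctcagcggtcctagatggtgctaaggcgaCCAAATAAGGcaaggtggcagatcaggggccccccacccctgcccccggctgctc
Tie1 held 2 matches in its stretch and the other genes 1 each. These stretches are examples and not a division of motifs by class. The ETS motif was held by 2 of the 4 endothelial rule genes with a promoter in the table (Emcn and Tie1, not Kdr and Tek) and by 4 of 15 cardiomyocyte rule genes (Actn2, Ryr2, Nebl and Csrp3). The CArG box was held by 0 of 4 and by 4 of 15 (Myl7, Myl3, Actc1 and Nebl). A match is a description of letters and does not show that a factor was bound.

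Promoters were taken as 250 bases before to 50 bases after a gene start. The called genes came from those that passed the filter on low values (a TPM above 0 in more than 10 of the 52 cells), whose 11743 promoters are the nearer background, beside all 32851 in the table. The ETS motif was held by 39.3% of promoters of genes that passed the filter and 31.9% of all, by 32.6% of the 350 promoters matched to genes higher in endothelial-like cells and by 26.4% of the 239 matched to genes higher in CM-like cells. Both called sets were thus below the genes that passed. The CArG box was held by 1.49% and 1.63% of the background sets, 1.71% of the endothelial-like set and 6.28% of the CM-like set. The MEF2 motif, CTA and TAG with any 4 bases between them, was held by 3.15%, 3.69%, 1.43% and 7.95% in the same order. The CArG box and the MEF2 motif were thus more frequent in the CM-like set than in either background. That set includes the cardiomyocyte rule genes, of which 4 of 15 held the CArG box and 2 of 15 the MEF2 motif. The GATA motif AGATAAG was held by 1.86%, 3.04%, 4.00% and 4.18%, so that both called sets were above either background. The NKX2 motif TNAAGTG was held by 8.77%, 11.5%, 6.57% and 9.62%, and the SOX motif ACAATGG by 2.16%, 3.66%, 2.00% and 2.51%. Both strands were searched, motifs could overlap, and several promoters could belong to 1 gene (245 and 179 genes had an entry). These shares were not tested. The table has no entry for Cdh5, Cd93, Ramp2, Icam2, Plvap and Esam.

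The 2 classes were far apart on the values that chose them. The lowest endothelial mean of an endothelial-like cell was 3.74 and the highest of any other control cell was 2.61. The lowest cardiomyocyte mean of a CM-like cell was 8.87, and the highest of a cell in neither class was 7.72. At least 1 TPM was found for 5 to 10 of the 10 endothelial genes in each endothelial-like cell (median 10) and for 0 to 7 in each CM-like cell (median 1). Transcripts of cardiomyocyte genes were nevertheless present in endothelial-like cells: 4 to 15 of the 15 genes (median 12), against 14 or 15 in CM-like cells. Their level was what differed: sarcomere genes in and outside the rule summed to 0.0501% to 4.47% of TPM in endothelial-like cells (median 0.197%) and to 4.38% to 14.2% in CM-like cells (median 8.5%).

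**Figure D1:**
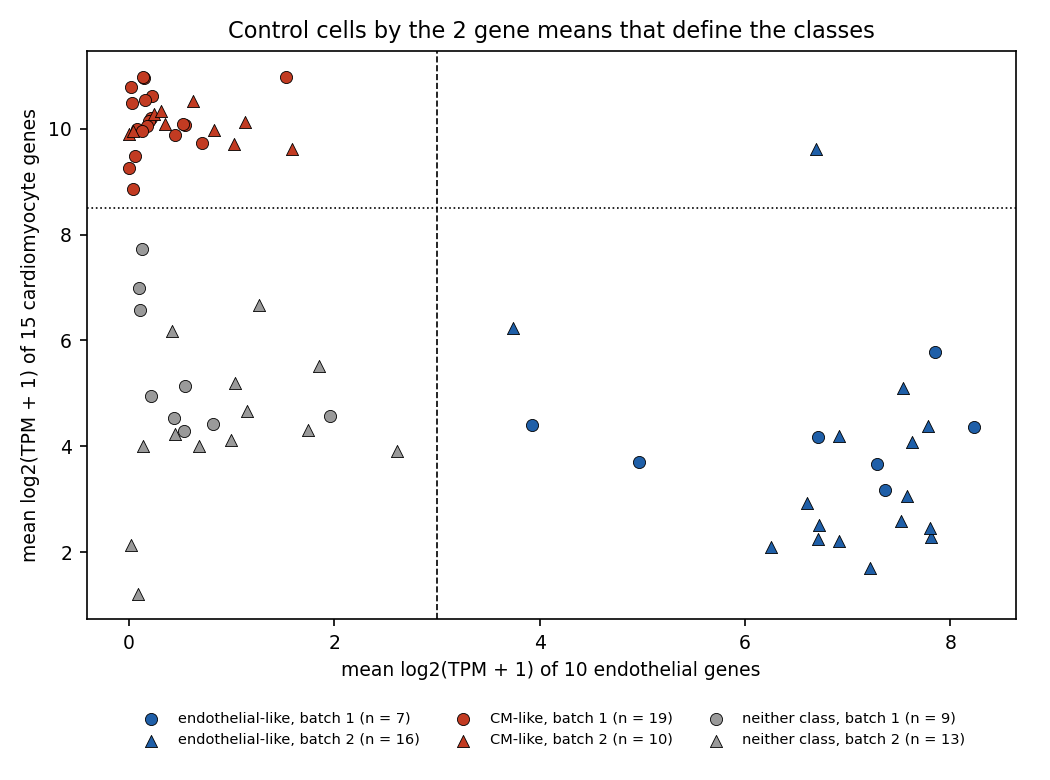
Each point is 1 of the 74 control cells, with the mean log2(TPM + 1) of the 10 endothelial genes on the horizontal axis and of the 15 cardiomyocyte genes on the vertical axis, colour for class and shape for sequencing batch. Dashed and dotted lines mark the thresholds of 3 and 8.5; 1 endothelial-like cell lies above both.

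The markers given with the class names are all rule genes, so their placement was fixed by the choice of cells and is given as a description of level. Cdh5, the VE-cadherin of endothelial junctions, was at 5.18 ± 1.43 in endothelial-like cells and below 1 TPM in all 29 CM-like cells. Emcn was at 7.29 ± 2.90 against 0.14 ± 0.34, Icam2 at 8.29 ± 1.01 against 1.19 ± 1.80, and Plvap at 7.55 ± 1.13 against 0.27 ± 0.77. Emcn differed less in batch 1 (4.66) than in batch 2 (8.29). In the other direction, cardiac troponin T (Tnnt2) was at 4.92 ± 2.08 against 10.87 ± 0.71 and the Z-disc protein gene Nebl at 1.68 ± 2.10 against 8.78 ± 0.73. Here and below, levels are mean log2(TPM + 1) ± SD with n = 23 endothelial-like and n = 29 CM-like cells, and differences are endothelial-like minus CM-like in log2 units.

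Some cells carried signal of another kind. The endothelial-like cell with the highest cardiomyocyte mean (9.62, above the CM-like threshold) had an endothelial mean of 6.69 and came from batch 2. It held the highest endothelial-like value of all 15 cardiomyocyte rule genes. The endothelial-like cell with the lowest endothelial mean (3.74, batch 2) had 3949 detected genes, 24.3% of its TPM in globin genes, 15.7% in the mitochondrial genome and a cardiomyocyte mean of 6.23. In CM-like cells, 3 had more than 15% mitochondrial TPM (17.6%, 24.8% and 41.1%) and 2 had globin at 4.19% and 1.31% of TPM. Without the 2 endothelial-like cells, the highest cardiomyocyte mean of the class was 5.78 and its highest sarcomere share 0.649%. No doublet caller was run, and what these cells hold was not tested further.

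The 2 classes were taken unequally from the batches. Batch 1 gave 7 endothelial-like cells of 35 control cells (20%, exact 95% binomial interval 8.44% to 36.9%) and 19 CM-like cells (54.3%, 36.6% to 71.2%). Batch 2 gave 16 of 39 (41.03%, 25.6% to 57.9%) and 10 (25.6%, 13.04% to 42.1%). Over both, 31.1% of control cells were endothelial-like (20.8% to 42.9%) and 39.2% CM-like (28.04% to 51.2%). These intervals cover counting error only, and the shares are of cells picked by hand. Genes detected above 0 TPM per cell had a median of 9270 (3949 to 14139) in endothelial-like and 9302 (3805 to 11468) in CM-like cells. That balance hid a difference within batches: 10293 against 8458 in batch 1 and 8499 against 9679 in batch 2. The median difference of all tested genes was 0.51 in batch 1, -0.10 in batch 2 and 0.21 pooled. For that reason a gene was counted as higher in a class only where its means differed by at least 2 log2 units, which is 4-fold on the TPM + 1 scale, in the pooled cells and in each batch.

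Of 13341 genes tested, 336 (2.52%) were higher in endothelial-like cells by that rule and 237 (1.78%) in CM-like cells. Which count was larger differed between the batches taken alone, with 1740 and 323 genes in batch 1 and 462 and 1043 in batch 2. Leaving out the rule genes themselves, the counts were 326 and 222. Without the 2 endothelial-like cells whose cardiomyocyte mean was 6 or more they were 394 and 247. Any gene of these cells may move with the genes that chose them, so these counts describe the classes and are no test. The 10 endothelial rule genes had a median difference of 6.26 and the 15 cardiomyocyte rule genes of -6.78, by construction. Gene lists described below share some members. Where members above or below 0 in both batches are counted, the share over all tested genes was not computed. A gene can pass the filter on low values through the cells of either class alone, which favours genes high in a class. In 12 genes every endothelial-like cell was above every CM-like cell. They were Ramp2, Plvap and Cd93 of the rule, and Cd34, Pecam1, Ece1, Calcrl, Hapln1, Col3a1, Mmp2, Vim and Tagln2 outside it. The reverse held for Tpm1 and the rule gene Myl4. Without those 2 cells, 21 and 16 genes did not overlap, 9 of them cardiomyocyte rule genes. Across the tested genes the batch differences had a Pearson r of 0.55 and a Spearman rho of 0.36, over genes that share cells and are not independent.

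**Figure D2:**
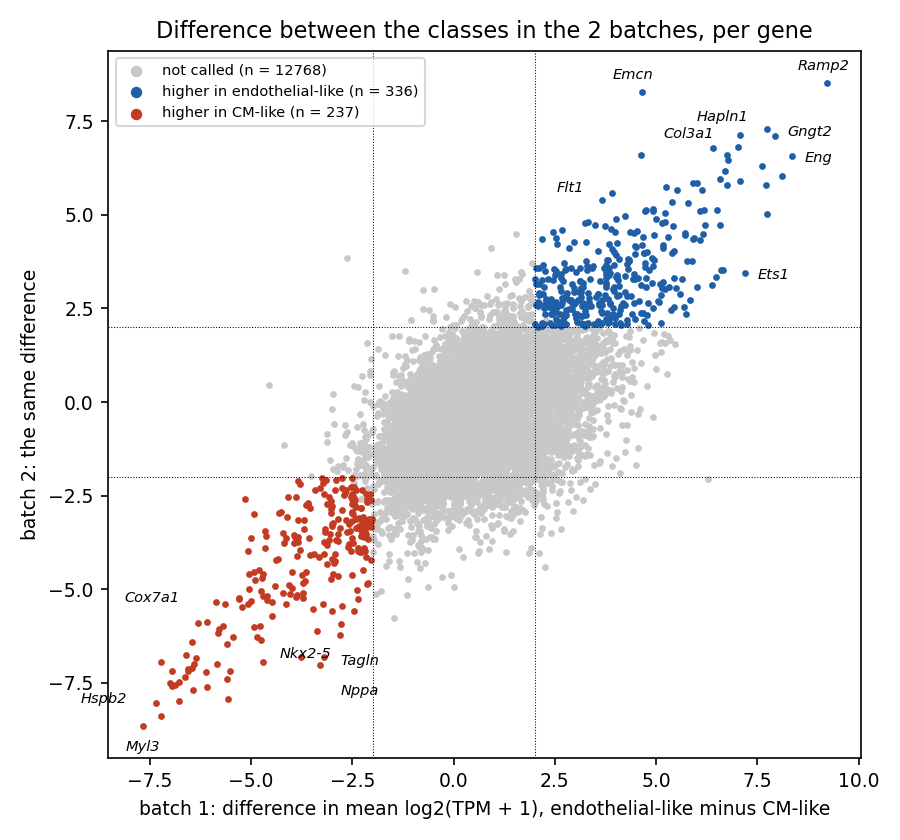
Each point is 1 of 13341 genes, with its endothelial-like minus CM-like difference in mean log2(TPM + 1) in batch 1 on the horizontal and in batch 2 on the vertical axis; dotted lines mark 2 and -2. The 336 blue and 237 red genes pass 2 log2 units in both batches and pooled, and Ramp2 (9.22 and 8.53) and Myl3 (-7.68 and -8.65) lie at the ends.

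Endothelial markers that the rule did not use were higher in endothelial-like cells in most cases. Of 20 such genes 16 could be tested, 11 were called higher (median difference 3.72, against 0.21 over all tested genes) and 0 lower, and all 16 were above 0 in both batches. Such genes can pass the filter through endothelial-like cells alone, and without the filter the median was 2.84. Pecam1, the adhesion molecule CD31, ranged from 5.65 to 8.81 (median 7.82) in endothelial-like cells and from 0.00 to 4.56 (median 2.32) in CM-like cells. The groups did not overlap, although Pecam1 reached 1 TPM in 28 of 29 CM-like cells. Cd34, a sialomucin of endothelial and blood progenitors, ranged from 5.37 to 9.91 (median 7.74) and from 0.00 to 4.02 (median 0.98), again with no overlap.

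Other markers were uneven between endothelial-like cells. Cldn5, a tight junction claudin of mature vessels, reached 1 TPM in 7 of 23 endothelial-like cells (30.4%, exact 95% interval 13.2% to 52.9%) and in 0 of 29 CM-like cells, a count that leaves room for a share of 10.3%, and it was too sparse to be tested. Robo4 was below 1 TPM in every endothelial-like cell. Clec14a (difference 1.47), Gimap1 (1.61) and She (1.21) were not called. Arhgap29 was at 3.76 ± 2.23 against 3.30 ± 1.91.

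The transcription factors of the endothelial lineage that stood highest in endothelial-like cells were of the ETS, SOX and homeobox families. Of 24 factors listed, 18 were tested, 11 were called higher and 0 lower, with a median difference of 3.20 (3.38 in batch 1 and 2.94 in batch 2). Ets1 ranged from 0.00 to 8.44 (median 7.58) in endothelial-like cells and from 0.00 to 5.93 (median 0.28) in CM-like cells. The cells overlapped through few endothelial-like cells, since 21 of 23 were above every CM-like cell. Hhex, a homeobox factor of blood and vessel progenitors, differed by 5.47, Elk3 by 4.73, and Sox7 by 4.37.

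Sox7 differed less than Ets1 in mean (4.37 against 5.77), while its values in CM-like cells reached less high. It ranged from 0.19 to 7.72 (median 5.13) against 0.00 to 0.46 (median 0.00), and was below 1 TPM in all CM-like cells. The pioneer-like ETS factor of vascular and blood progenitors, Etv2, reached 1 TPM in 18 of 23 endothelial-like cells (78.3%, 56.3% to 92.5%) and in 4 of 29 CM-like cells (13.8%, 3.89% to 31.7%). Fli1 (3.57), Klf2 (3.59), Gata2 (3.20), Nfatc1 (3.25), Foxo1 (3.03) and Ets2 (3.19) were called too. Erg was not called (1.34) and reached 1 TPM in 7 of 23 cells, and Sox17 and Sox18 were too sparse to be tested.

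Of 25 cardiac factors listed, 22 were tested, 6 were called higher in CM-like cells and 0 in endothelial-like cells (median -1.05). In all, 14 were below 0 in both batches and 3 above 0. Nkx2-5, the cardiac homeobox factor, ranged from 0.00 to 5.50 (median 0.00) in endothelial-like cells and from 0.00 to 7.93 (median 6.83) in CM-like cells. For this gene 24 of 29 CM-like cells were above every endothelial-like cell. Hand1 differed by -4.31, the SRF coactivator gene Myocd by -4.87, Smyd1 by -5.51, Ankrd1 by -4.88 and the ventricular factor Irx4 by -2.30. Irx4 was not called without the cells with more than 15% mitochondrial TPM or an erythroid mean of 5 or more (-2.27).

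Other cardiac factors were not called. Tbx5 differed by -2.21 (-1.81 in batch 1) and Hopx by -1.91 (-1.09 in batch 2). Hand2 was at 2.65 ± 1.92 against 2.26 ± 1.59 and Gata6 at 2.62 ± 1.99 against 2.15 ± 1.94. Gata4 differed by 0.96 in batch 1 and -2.69 in batch 2, and Tbx20 by 1.504 and -2.86, so that neither has a direction here. Mef2a was nearer to endothelial-like cells (2.36) and Mef2c to CM-like cells (-1.76), and neither was called.

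Genes known from the endocardium were prominent in the endothelial-like cells. Of 17 listed, 16 were tested, 8 were called higher and 0 lower, with a median of 2.71 (3.27 and 2.15 by batch). Nfatc1, an endocardial factor, was at 3.60 ± 1.85 against 0.35 ± 1.06. The natriuretic clearance receptor gene Npr3 was at 4.09 ± 2.06 against 0.39 ± 0.81, and the junction gene Cgnl1 at 5.29 ± 1.76 against 2.62 ± 1.96. Dok4 (2.75, 1.62 in batch 2), Tmem100 (2.06, 1.63 in batch 2) and Has2 (1.91) were not called. Markers of coronary or other vessel endothelium were not set against them, so no subtype is named.

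Flow responsive genes included the factor Klf2 (3.59), the nitric oxide synthase Nos3 (3.78), thrombomodulin, Thbd (2.93), and Edn1 (4.55). These 4 of 8 tested and 9 listed were called higher and 0 lower (median 2.67). Klf4 was at 4.44 ± 1.92 against 2.02 ± 1.94 and missed the rule in batch 2 (1.47). The ion channel gene Piezo1 was not called (0.89).

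Calcrl encodes the adrenomedullin receptor, and its partner RAMP2 or RAMP1 sets which peptide it binds. Calcrl ranged from 2.57 to 8.35 (median 6.87) in endothelial-like cells and from 0.00 to 2.43 (median 0.12) in CM-like cells. Ramp2, a rule gene, ranged from 7.84 to 10.05 (median 9.20) against 0.00 to 4.24 (median 0.00). Neither gene overlapped between the classes, and both reached 1 TPM together in 23 of 23 endothelial-like cells and 0 of 29 CM-like cells. The Ramp2 side of this was fixed by the choice of cells, while Calcrl was not in the rule. Ramp1 was placed the other way, at 0.17 ± 0.46 against 2.42 ± 2.41, with at least 1 TPM in 1 of 23 and 15 of 29 cells. Calcrl and Ramp1 were found together in 1 cell of each class. The ligand gene Adm was at 1.79 ± 2.56 against 1.59 ± 2.29 and was not called.

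In the endothelin system, of which no gene was in the rule, the ligand, its processing enzyme and the B receptor were higher in endothelial-like cells and the A receptor in CM-like cells. Edn1, which encodes endothelin-1, ranged from 0.00 to 9.29 (median 5.77) against 0.00 to 4.47 (median 0.00). Ece1, the converting enzyme, ranged from 7.92 to 10.16 (median 9.68) against 0.10 to 6.21 (median 3.48). Ednrb ranged from 0.00 to 9.28 (median 7.99) against 0.00 to 4.30 (median 0.24). Ece1 did not overlap, while 16 endothelial-like cells for Edn1 and 20 for Ednrb were above every CM-like cell. Ednra was at 0.45 ± 1.19 against 3.04 ± 2.43, a difference of -2.60 (-2.42 and -2.34 by batch), and reached 1 TPM in 2 of 23 and 19 of 29 cells. Of the other vessel receptors listed, Gpr126 was called (4.54) and the sphingosine receptor gene S1pr1 was not (2.38, 1.46 in batch 1). The list as a whole had 12 of 19 genes tested, 5 called higher and 4 lower, with a median of 1.29.

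The 4 genes of that list called higher in CM-like cells were Ednra, Ramp1, the chemokine Cxcl12 (-2.60) and the growth factor Pdgfa (-2.37). Each was patchy within CM-like cells: Cxcl12 reached 1 TPM in 15 of 29 cells and Pdgfa in 16 of 29. Pdgfa was not called without the cells of high mitochondrial or erythroid share (-2.11). The receptors of both ligands, Cxcr4 and Pdgfra, were too sparse to be tested.

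In angiopoietin signalling the ligand gene Angpt1 was found in CM-like cells. Angpt1 ranged from 0.00 to 0.25 (median 0.00) in endothelial-like cells and from 0.00 to 6.42 (median 4.21) in CM-like cells. It reached 1 TPM in 0 of 23 endothelial-like cells, a count that leaves room for a share of 13.04%, and in 21 of 29 CM-like cells (72.4%, 52.8% to 87.3%). Its receptor gene Tek, a rule gene, ranged from 0.00 to 8.40 (median 7.49) against 0.00 to 4.07 (median 0.00). Tek and Tie1 were found together in 21 of 23 and 1 of 29 cells, and as both are rule genes the choice of cells fixed that side. Angpt2, a vascular ligand of the same receptor, was at 1.73 ± 2.19 against 0.79 ± 1.48 and was not called.

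VEGF receptors were on one side and VEGF ligands were less clearly placed. Flt1 was at 4.95 ± 2.25 against 0.07 ± 0.15, Flt4 at 3.74 ± 2.17 against 0.06 ± 0.31, and the semaphorin receptor gene Plxnd1 at 4.88 ± 1.37 against 0.59 ± 1.22. Vegfa was at 1.53 ± 1.53 against 2.50 ± 1.91 and Vegfb at 1.65 ± 2.33 against 3.65 ± 1.77. Neither ligand passed the rule in both batches, Vegfb with differences of -1.68 and -2.09. The co-receptor gene Nrp1 was at similar levels (4.90 ± 2.21 and 4.68 ± 1.78). Of 15 genes listed, 13 were tested, 3 were called higher and 1 (Angpt1) lower, with a median of 0.94 (1.06 and 0.40 by batch).

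The natriuretic peptide genes Nppa and Nppb were higher in CM-like cells, and the receptor genes Npr1 and Npr3 in endothelial-like cells. Nppa ranged from 0.00 to 8.51 (median 3.51) in endothelial-like cells and from 1.08 to 14.16 (median 10.06) in CM-like cells. Nppb ranged from 0.00 to 4.94 (median 0.60) against 0.00 to 10.65 (median 6.91). Both peptides spread widely among CM-like cells, of which 20 for Nppa and 19 for Nppb were above every endothelial-like cell. The guanylyl cyclase receptor gene Npr1 was at 2.95 ± 2.70 against 0.33 ± 1.16 and Npr3 differed by 3.70. Npr2 (-0.08) and the processing protease gene Corin (0.13) were not called, so the 7 listed genes, 6 of them tested, gave 2 in each direction (median 0.02).

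The BMP ligand genes Bmp7 and Bmp5 were higher in CM-like cells, and the co-receptor genes Eng and Tgfbr3 in endothelial-like cells. Bmp7 was at 1.00 ± 1.07 against 4.57 ± 1.95 and Bmp5 at 0.43 ± 1.08 against 3.19 ± 2.34. Bmp5 reached 1 TPM in 2 of 23 and 20 of 29 cells. Bmp2 (-0.51) and Bmp4 (-0.79) were low in both classes. Eng, which encodes the co-receptor endoglin, was at 7.74 ± 2.02 against 0.53 ± 0.71, and 22 of 23 endothelial-like cells were above every CM-like cell. The betaglycan gene Tgfbr3 differed by 2.84, although not called without the cells of high mitochondrial or erythroid share.

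Among the targets of this pathway, Id3 was at 8.29 ± 2.71 against 3.66 ± 3.04 and Smad7, an inhibitor, at 4.21 ± 1.67 against 1.13 ± 1.68. Id1 (1.70) and Id2 (0.77) were not called. The receptors Bmpr1a (1.52 in batch 1 and -1.95 in batch 2) and Tgfbr1 (0.63 and -0.19) had no direction, and Acvr1 passed in batch 1 only (4.25, 1.76 in batch 2). Of 27 genes listed, 22 were tested, 4 were called higher and 2 lower, with a median of 1.06.

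Notch and neuregulin genes were sparser. Notch1 ranged from 1.81 to 8.01 (median 4.68) in endothelial-like cells and from 0.00 to 3.00 (median 0.00) in CM-like cells, and 21 of 23 endothelial-like cells were above every CM-like cell. It was the 1 gene called of 12 tested and 17 listed (median 1.67, 0.72 in batch 2). The ligand gene Dll4 reached 1 TPM in 9 of 23 endothelial-like cells (39.1%, 19.7% to 61.5%) and in 0 of 29 CM-like cells, and it missed the rule in batch 2 (1.44). Jag1 was nearer to CM-like cells (-0.76). The targets Hey1 (2.35, 0.77 in batch 2) and Hey2 (-1.35) pointed in opposite directions, and neither was called.

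Nrg1, the endocardial neuregulin, reached 1 TPM in 9 of 23 and 3 of 29 cells, and its receptor genes Erbb2 and Erbb4 in 8 and 2 of 23 against 19 and 15 of 29. None of the 3 passed the rule, with differences of 1.37, -1.22 and -1.49. Erbb2 and Erbb4 were found in the same cell in 1 of 23 endothelial-like and 9 of 29 CM-like cells. The metalloproteases Adamts1 (4.11), which cleaves versican, and Adam19 (3.18) were the 2 genes called of 13 tested and 15 listed in this group. Igf2 was abundant in both classes, at 11.19 ± 0.72 against 9.04 ± 1.27, and at 1.89 in batch 2 it missed the rule.

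**Figure D3:**
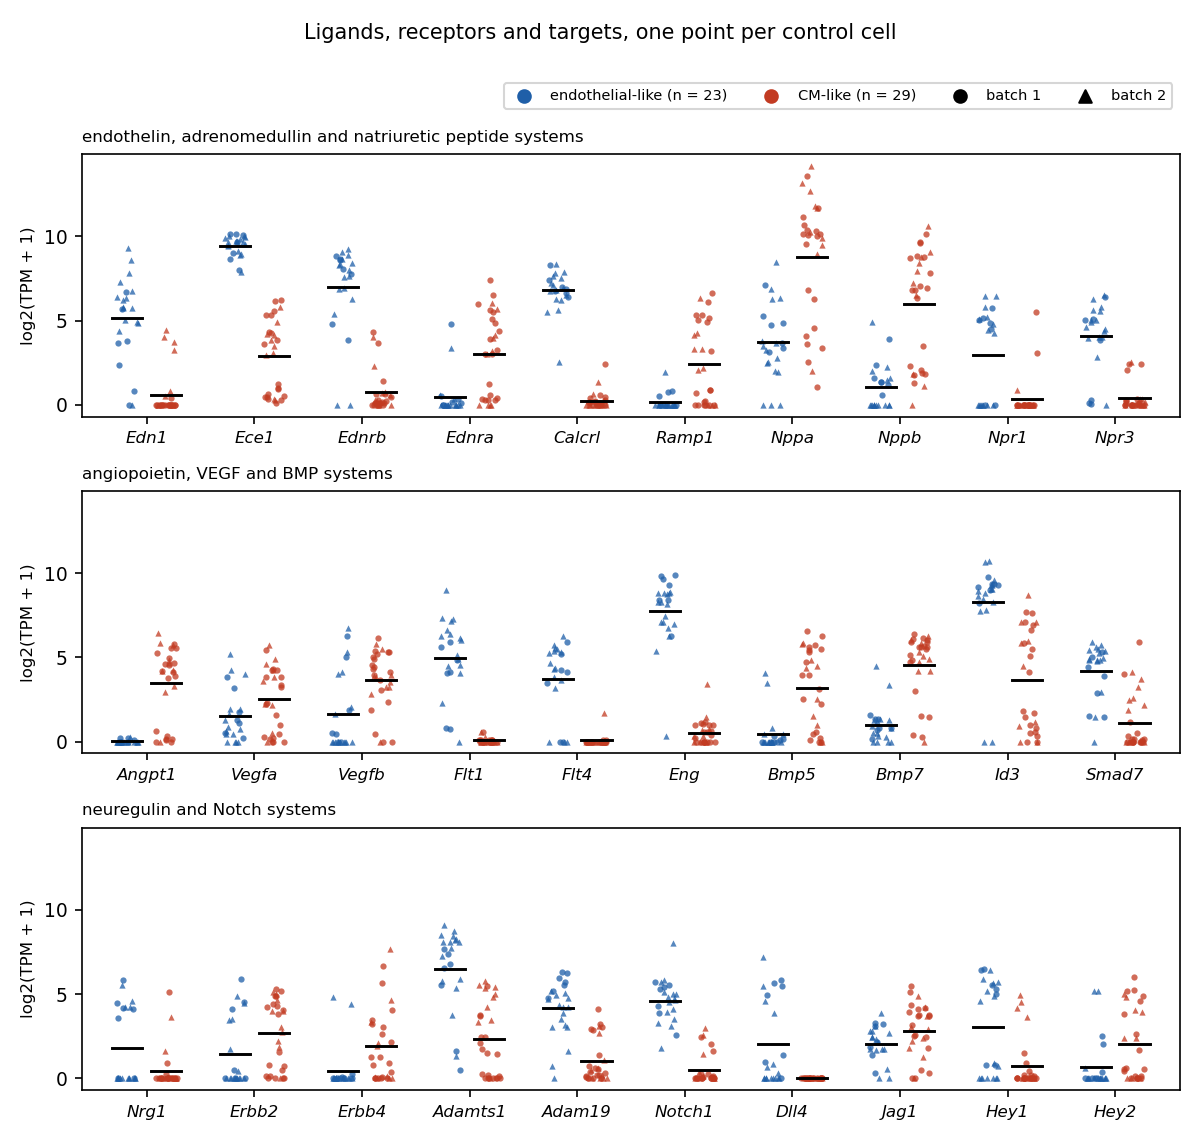
Each point is 1 control cell, with log2(TPM + 1) on the vertical axis, blue for endothelial-like (n = 23) and red for CM-like (n = 29) cells, circles for batch 1 and triangles for batch 2, and bars for means. Ece1, Ednrb and Calcrl sit high in endothelial-like cells (medians 9.68, 7.99 and 6.87), while Angpt1, Ednra and Ramp1 reach 1 TPM in 0, 2 and 1 of them.

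Of the genes below that are known from the matrix between the layers, only Hapln1 was called. Hapln1, a link protein that holds hyaluronan to proteoglycans, ranged from 5.07 to 9.11 (median 8.36) in endothelial-like cells and from 0.00 to 4.08 (median 0.25) in CM-like cells, with no overlap, and was counted with the endocardial genes. Vcan, the proteoglycan it binds, ranged from 0.00 to 7.70 (median 2.23) against 1.21 to 9.16 (median 5.99). Vcan was nearer to CM-like cells in both batches but passed 2 log2 units in batch 2 only (-1.16 and -4.03). The hyaluronan synthase gene Has2 reached 1 TPM in 11 of 23 and 2 of 29 cells.

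Basement membrane genes were split within families. Nid1 was at 5.80 ± 1.71 in endothelial-like and 0.68 ± 1.47 in CM-like cells, whereas its paralogue Nid2 was at 1.59 ± 1.83 against 4.70 ± 2.24. In all, 19 of 23 endothelial-like cells were above every CM-like cell for Nid1, and 17 of 29 CM-like cells above every endothelial-like cell for Nid2. Fn1 differed by 5.03, Col18a1 by 4.69, Fbn1 by 3.82, Fbln2 by 2.85 and Timp1 by 3.16. Col4a1 was called (2.75) but not without the cells of high mitochondrial or erythroid share (2.80 pooled), and Col4a2 was not called (2.43, 1.83 in batch 1). The laminin genes Lamb1 (0.88), Lamc1 (0.93) and Lama4 (-0.04) were shared by both classes.

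Col3a1 and Mmp2, genes often found in mesenchyme, were present in every endothelial-like cell. Col3a1 ranged from 5.63 to 9.71 (median 7.85) against 0.00 to 4.64 (median 0.09), and Mmp2 from 4.56 to 8.71 (median 6.72) against 0.00 to 2.20 (median 0.00). Neither overlapped. Col1a1, by contrast, was low in both classes (0.34 ± 0.30 and 0.52 ± 1.11). Of 27 matrix genes listed, 25 were tested, 9 were called higher and 1 lower, with a median of 1.91 (2.11 and 1.13 by batch).

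Genes of cushion mesenchyme and of the epithelial to mesenchymal transition were mostly not called. Of 18 listed, 13 were tested, 1 (Vim) was called higher and 1 (Cdh2) lower, with a median of 1.04. Vim ranged from 9.15 to 11.53 (median 10.69) against 0.93 to 8.93 (median 7.33). Snai1 reached 1 TPM in 9 of 23 and 3 of 29 cells, Msx1 in 12 of 23 and 1 of 29, and Postn in 8 of 23 and 0 of 29. Twist1, Pdgfra and Pdgfrb were too sparse to be tested, and Prrx1 and Lum were below 1 TPM in every endothelial-like cell. The summed level of the list was 608 to 3129 TPM in endothelial-like and 12.8 to 668 TPM in CM-like cells, ranges that overlapped slightly. Vim made up most of this sum: without it the list summed to 0.942 to 680 TPM (median 163) in endothelial-like and 5.89 to 391 TPM (median 162) in CM-like cells.

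Among adhesion genes, Cdh2, the N-cadherin of myocardial junctions, ranged from 0.00 to 5.97 (median 0.34) in endothelial-like cells and from 2.41 to 7.63 (median 6.14) in CM-like cells. Cdh2 was above Cdh5 in 2 of 23 endothelial-like and 29 of 29 CM-like cells, a count to which the choice of cells by Cdh5 contributes. The desmosome genes Dsp (-2.79) and Pkp2 (-2.41) were called higher in CM-like cells, Dsp not at an endothelial threshold of 6. The catenin gene Ctnnb1 (1.32), the plakoglobin gene Jup (1.48), vinculin, Vcl (0.79), the integrin Itga6 (0.42) and the connexin Gja1 (0.49) were not called. Of 25 genes listed, 23 were tested, 0 were called higher and 3 lower (median 0.49, and -0.11 in batch 2).

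Cytoskeletal genes of non-muscle cells formed a large share of transcripts in endothelial-like cells, 1.64% to 5.11% of TPM (median 3.90%) against 0.495% to 2.60% (median 1.60%). All 26 were tested, 11 were called higher and 1 lower, with a median of 2.19 (2.59 and 1.47 by batch). Beta-actin (Actb) was at 13.28 ± 0.47 against 10.21 ± 0.89, Actg1 at 11.62 ± 0.65 against 7.80 ± 2.09 and moesin (Msn) at 7.90 ± 0.79 against 3.94 ± 2.05. Marcks (3.26), Arpc1b (3.70), Flna (2.97), S100a10 (4.00) and Anxa2 (2.95) were called too, the last 2 not without the cells under 5000 detected genes. Profilin, Pfn1 (0.78), cofilin, Cfl1 (0.86), and the non-muscle myosins Myh9 (0.57) and Myh10 (0.06) were not called.

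Myl9 was the exception of that list. This regulatory light chain gene of smooth and non-muscle myosin ranged from 0.00 to 11.14 (median 2.79) in endothelial-like cells and from 6.77 to 12.54 (median 11.31) in CM-like cells. The related Myl6 was at 10.59 ± 0.49 against 11.29 ± 0.44.

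Some small GTPase genes known from vessels were higher in endothelial-like cells, and most genes of the list were not called. Rhoj was at 5.65 ± 2.08 against 0.07 ± 0.17 and below 1 TPM in all CM-like cells. Arhgdib (5.67), Rasip1 (3.71), which is needed for vessel lumens, and Dock6 (3.52) were the others of 4 called among 18 tested. Rhoa (1.05, -0.22 in batch 2), Rac1 (0.30) and Cdc42 (1.24) were not called, and the list's median was 0.97. Radil (-0.86), Arhgap29 (0.47), Arhgap18 (0.38) and Dock9 (0.36) were not called either.

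Sarcomere genes outside the rule followed the rule genes. Of 33 listed, 32 were tested, 25 were called higher in CM-like cells and 0 in endothelial-like cells, with a median of -4.48. Tpm1, the muscle tropomyosin, ranged from 5.38 to 10.91 (median 7.58) against 11.13 to 12.59 (median 11.81) and did not overlap. Myl2, the ventricular regulatory light chain, ranged from 0.00 to 12.31 (median 5.42) against 10.89 to 14.61 (median 12.71). Mybpc3 differed by -6.58, Tnni3 by -6.94, Des by -5.75, Tcap by -4.27 and the chaperone gene Unc45b by -5.20.

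Not all muscle genes of the list were on that side. Pdlim3 was at 6.61 ± 3.39 in endothelial-like and 3.50 ± 2.77 in CM-like cells (5.35 and 1.65 by batch), and was not called. Myom2 (0.25), Neb (0.79), Fhl2 (-1.56), Myoz2 (-1.32), Tnnt1 (-1.57) and Myh7b (-1.79) were not called, and Xirp2 was too sparse to be tested. Tnni2 was called (-3.29) but not without the cells under 5000 detected genes. The rule gene with the smallest difference was the ryanodine receptor gene Ryr2 (-2.42), which was likewise not called without those cells. Reads of near-identical paralogues (Actc1, Acta1, Acta2, Actb and Actg1, or Myh6 and Myh7) may be shared by the quantification, so their single values are less certain.

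Acta2, Tagln, Cnn1 and Myocd, often used as smooth muscle markers, were higher in CM-like cells (-7.01, -5.50, -4.74 and -4.87). These 4 were the genes called among 6 tested and 9 listed (median -4.81, and -1.35 without the filter). Myh11, the defining smooth muscle myosin, was below 1 TPM in every cell of both classes.

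Of 21 calcium handling genes listed, 19 were tested, 7 were called higher in CM-like and 1 in endothelial-like cells, with a median of -1.96. Their summed share of TPM overlapped, at 0.0651% to 0.19% (median 0.13%) in endothelial-like and 0.0486% to 0.262% (median 0.15%) in CM-like cells. Slc8a1, the sodium-calcium exchanger, ranged from 0.00 to 6.33 (median 0.00) against 0.22 to 7.52 (median 5.73). Phospholamban (Pln) differed by -4.79, Casq1 by -5.32, the L-type channel gene Cacna1c by -3.27, Trdn by -3.57 and the sodium pump subunit gene Atp1b1 by -6.02. The inositol trisphosphate receptor gene Itpr2 was the 1 gene called in the other direction, at 3.48 ± 2.27 against 0.19 ± 0.47. The calcium pump gene Atp2a2 was expressed in both classes (4.66 ± 1.86 and 6.67 ± 1.41) and missed the rule in batch 2 (-1.34). Camk2d (0.25) was not called.

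Ion channels of the adult heart were mostly sparse at this stage. Of 16 genes listed, 12 were tested and 2 were called, with a median of -1.42. The 2 were the Popeye domain genes Popdc2 (-6.16) and Bves (-2.97), which do not encode channels. No channel gene of this list was called. The pacemaker channel gene Hcn4 reached 1 TPM in 0 of 23 and 8 of 29 cells. Kcnj5 (-2.08, -1.72 in batch 1) and Kcnh2 (-1.69) were not called.

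In energy metabolism the differences were largest for some muscle and heart isoforms. Glycolysis genes had 20 of 21 members tested, all 20 below 0 in both batches, with 5 called higher in CM-like and 0 in endothelial-like cells (median -1.35). The 5 were the glucose transporter gene Slc2a1 (-2.80), the hexokinase Hk1 (-2.92), and the muscle or heart forms Pgam2 (-7.53), Eno3 (-5.81) and Ldhb (-4.72). The widely expressed counterparts of Pgam2, Eno3 and Ldhb differed far less: Pgam1 by -1.03, Eno1 by -1.34 and Ldha by -0.85. Gapdh differed by -0.96. Hexokinase and phosphofructokinase genes did not follow this. The muscle forms Hk2 (-2.19) and Pfkm (-2.12) differed less than Hk1 (-2.92) and Pfkp (-2.48). Slc2a4 was too sparse to be tested. The list took 0.517% to 2.05% of TPM (median 0.911%) in endothelial-like and 0.493% to 3.28% (median 2.49%) in CM-like cells.

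Respiratory chain genes of the nucleus showed the same pattern. Of 53 tested and 54 listed, 46 were below 0 in both batches, but 2 were called (median -1.04). Over all tested genes 1.78% were called in this direction, so 2 calls say little about the list. The 2 were Cox6a2 and Cox7a1, the heart and muscle forms of cytochrome c oxidase subunits. Cox6a2 ranged from 0.00 to 8.04 (median 0.00) in endothelial-like cells and from 0.00 to 10.04 (median 8.34) in CM-like cells. Cox7a1 was at 1.19 ± 2.21 against 6.78 ± 1.75. Their widely expressed counterparts Cox6a1 (-0.77) and Cox7a2 (-0.73) were near the list's median.

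The balance within a cell was taken in log2(TPM + 1) as the muscle or heart form minus the widely expressed form. It was -9.51 for Cox6a and -8.61 for Cox7a in the median endothelial-like cell and -2.52 and -2.89 in the median CM-like cell. For enolase it was -8.55 against -3.59 and for phosphoglycerate mutase -6.86 against -0.51. For lactate dehydrogenase, as the heart form Ldhb minus Ldha, it was -6.01 against -3.60. The muscle or heart form was the higher one in 0 of 23 endothelial-like cells for these 5 pairs. In CM-like cells it was higher in 10 of 29 for phosphoglycerate mutase, in 1 of 29 for Cox7a and in 0 of 29 for the rest. TPM is scaled for length, so levels of 2 genes can be set side by side.

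In the actin and fatty acid binding protein pairs the higher member differed between most cells of the classes. Actc1, a rule gene and so placed by the choice of cells, was above Actb in 2 of 23 endothelial-like and 29 of 29 CM-like cells. The heart fatty acid binding protein gene Fabp3 was above Fabp5 in 1 of 23 and 26 of 29 cells. The muscle fatty acid importer gene Cpt1b was above Cpt1a in 8 of 23 and 29 of 29 cells. Its median balance against Cpt1a was 0 in endothelial-like and 6.36 in CM-like cells, and Cpt1a was too sparse to be tested. Fabp3 was at 1.41 ± 2.28 against 8.45 ± 2.31. Fabp3, Cpt1b and the coactivator gene Ppargc1a (-3.29) were the 3 called among 25 tested and 30 listed genes of the citrate cycle, fatty acid and creatine metabolism (median -1.12). Citrate synthase, Cs (0.11), Ckb (0.03) and Mdh2 (-0.86) were not called.

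**Figure D4:**
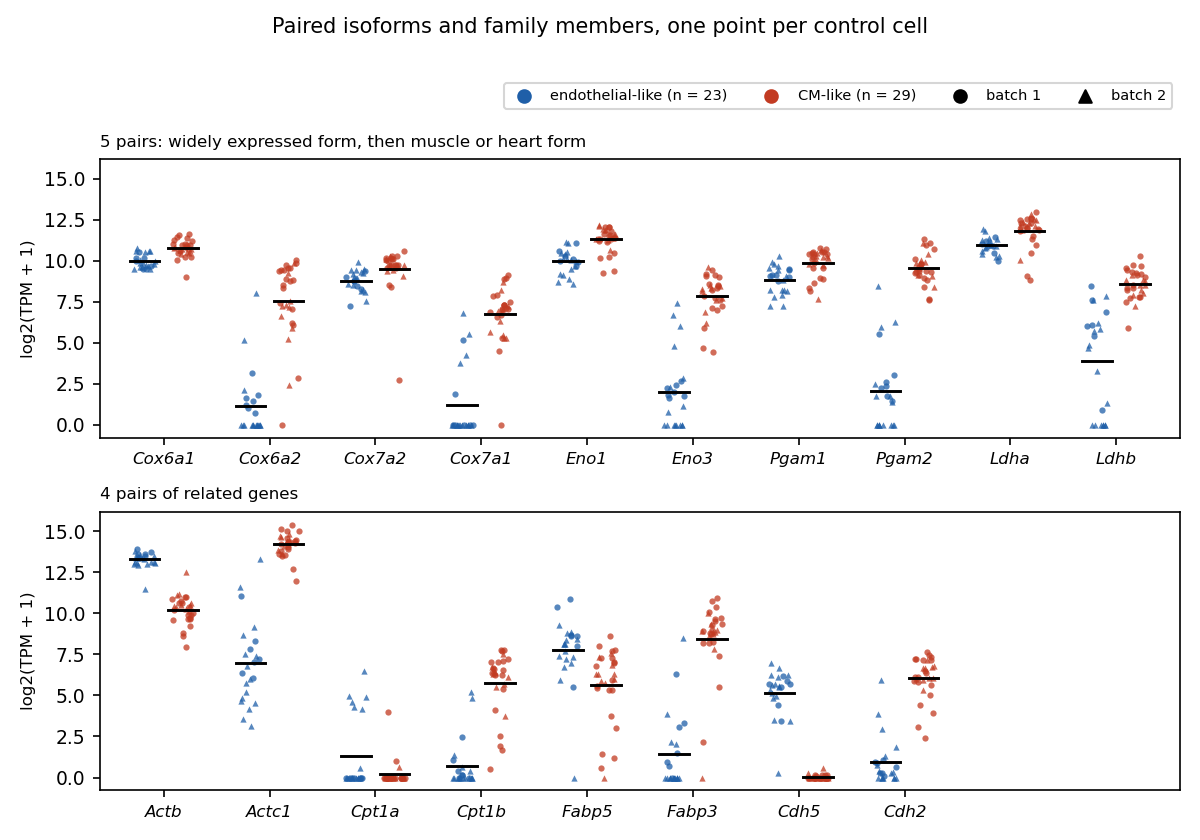
Each point is 1 control cell with log2(TPM + 1) on the vertical axis, for 5 pairs of a widely expressed and a muscle or heart form and 4 pairs of related genes; colours and shapes give class and batch, and bars are means. The widely expressed forms differ by -0.73 to -1.34, while Cox6a2, Cox7a1, Eno3, Pgam2 and Ldhb are higher in CM-like cells (differences of -6.39, -5.59, -5.81, -7.53 and -4.72).

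Lists of general cell functions gave no called gene. This held for 13 transcripts of the mitochondrial genome (median -0.17), 60 tested ribosomal protein genes (median 0.31), 8 genes of microRNA processing (median 0.11) and 38 cell cycle genes. With 2.52% of all tested genes called higher and 1.78% lower, 0 calls in short lists do not show equal levels. Cell cycle genes had a median of 0.90, but of 1.34 in batch 1 and -0.07 in batch 2, where the numbers of detected genes also differed between the classes. Ccnd1 differed by 1.95 and Ccnd2 by -1.60. Dgcr8, floxed in these embryos, was at 1.02 ± 1.78 against 2.61 ± 2.91 and reached 1 TPM in 8 of 23 and 16 of 29 cells. Of 5 sex-linked genes 0 were called. Xist reached 1 TPM in 0 of 23 and 0 of 29 cells, and the Y-linked Ddx3y in 16 of 23 and 19 of 29.

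Immediate early genes were in part higher in endothelial-like cells. Of 18 listed, 17 were tested, 4 were called higher and 0 lower (median 1.58): Klf6 (4.55), Nr4a1 (4.29), Junb (3.85) and Zfp36 (3.14). Fos was high in both classes (6.77 ± 2.17 and 6.47 ± 2.72), as was Hsp90aa1 (9.68 ± 0.58 and 9.95 ± 0.82). Jun (0.74), Egr1 (0.70), Atf3 (3.16, 1.41 in batch 1) and Dusp1 (2.80, 1.51 in batch 2) were not called. Immediate early genes are also known to respond to tissue dissociation.

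Most markers of other cells of the region were scarce, apart from red cell transcripts. Of 11 erythroid genes 6 were tested and 0 called. Their sum ranged from 0 to 243803 TPM (median 52.7) in endothelial-like and from 0 to 41942 TPM (median 8.24) in CM-like cells. The highest value was from the endothelial-like cell with 3949 detected genes, and Gata1 was below 1 TPM in every endothelial-like cell. Epicardial genes (5 of 8 tested, 0 called) summed to at most 129 and 540 TPM (medians 1.66 and 24.9), and Aldh1a2 was below 1 TPM in all cells. Wt1 was nearer to CM-like cells (-1.74) and was not called. Blood and platelet genes (5 of 15 tested, 0 called) summed to at most 238 and 604 TPM, with C1qa, C1qb and Tyrobp below 1 TPM in all cells. Neural crest and epithelial genes (5 of 12 tested, 0 called) summed to at most 312 and 669 TPM (medians 2.72 and 43.1). Of these, Sox10, Foxd3, Cdh1, Foxa2 and Sox2 were below 1 TPM in all cells. The keratin genes Krt8 (-2.07) and Krt18 (-2.36) were nearer to CM-like cells and were not called. Over all tested genes 2.52% were called higher and 1.78% lower, so 0 calls in lists of 5 or 6 tested genes say little.

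**Figure D5:**
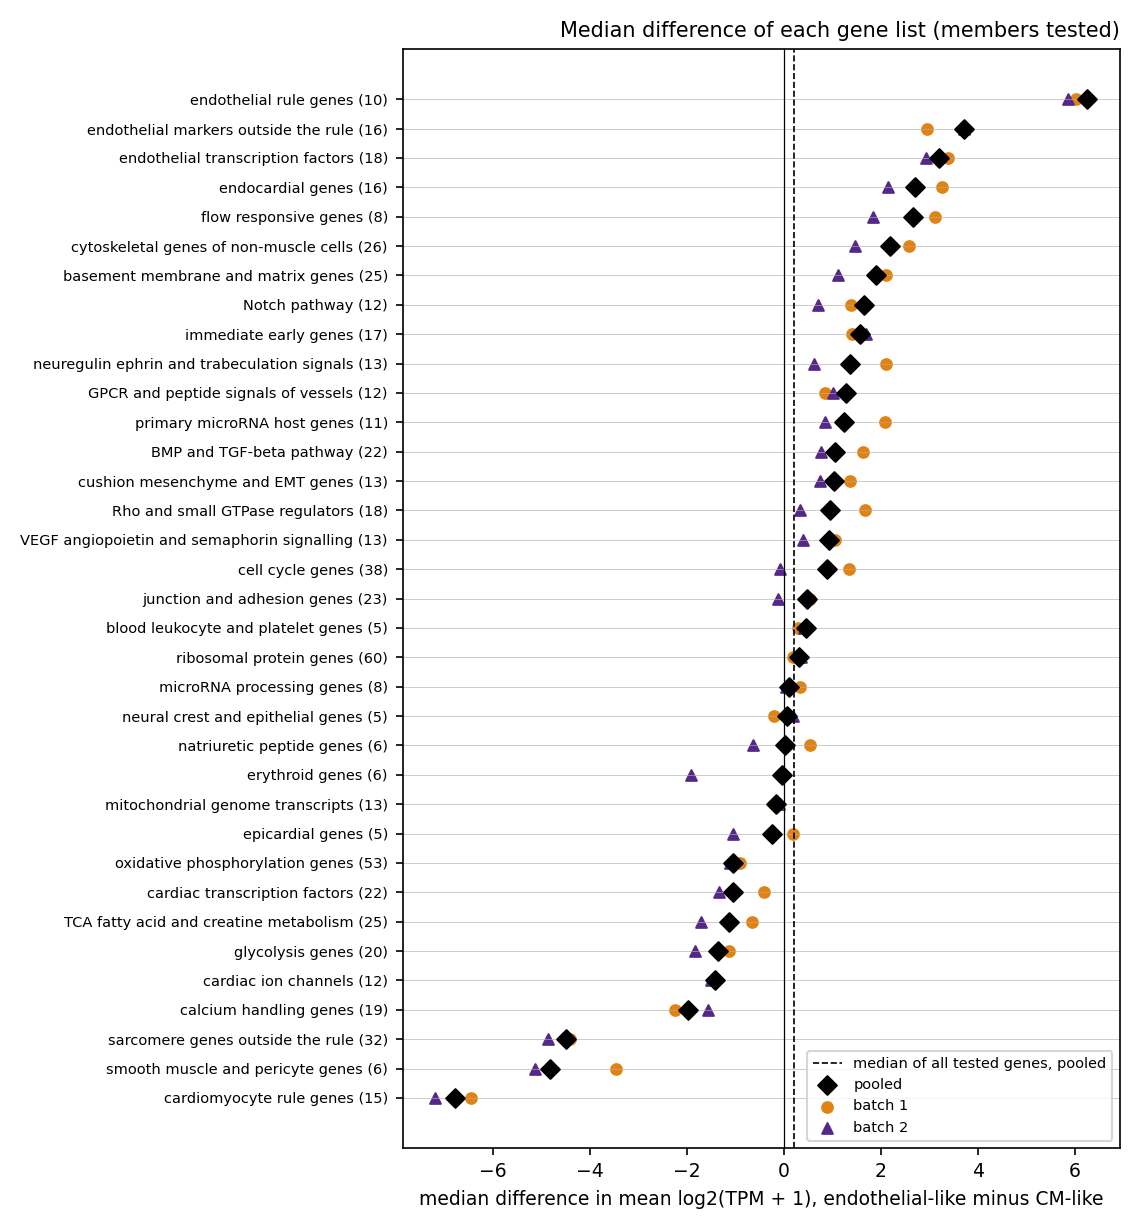
For each gene list, with the number of tested members in brackets, the horizontal axis gives the median endothelial-like minus CM-like difference in mean log2(TPM + 1), pooled (black) and within batch 1 (orange) and batch 2 (purple); the dashed line is the median of all tested genes (0.21). Outside the rule genes, medians run from 3.72 for endothelial markers to -4.81 for smooth muscle and pericyte genes.

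Outside all lists, the 15 genes furthest apart in each direction, ranked by the smaller of the batch differences, mixed known and less known genes. In the endothelial-like direction these were Gngt2, Gimap6, Fxyd5, Ifitm3, Ecm1, Ctla2a, Slc43a3, Sdpr (now Cavin2), Cotl1, Tagln2, Igf1, Klk8, Slc29a1, Dbn1 and Klhl4. Gngt2, a G protein gamma subunit first known from cone photoreceptors, was at 8.10 ± 1.97 against 0.67 ± 1.17 (7.94 and 7.10 by batch). The actin-bundling gene Tagln2 ranged from 8.12 to 11.40 (median 9.97) against 0.00 to 8.10 (median 2.39). Igf1, the growth factor, ranged from 0.00 to 8.33 (median 5.92) against 0.00 to 1.57 (median 0.00), and 20 of 23 endothelial-like cells were above every CM-like cell. Ifitm3 and Fxyd5 were below 1 TPM in all CM-like cells.

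In the CM-like direction the 15 were Hspb2, Trim55, Myl1, Chchd10, Asb2, Fitm1, Nexn, Ptpla (now Hacd1), Hspb8, Sh3bgr, Ppif, Sorbs2, Mylk3, Alcam and Gpc3. Trim55, a sarcomere-associated ubiquitin ligase, was at 0.74 ± 1.91 against 8.60 ± 1.90, and Myl1, an essential light chain of skeletal muscle, at 2.89 ± 2.96 against 10.00 ± 1.29. Hspb2, a small heat shock protein of muscle, differed by -7.35 in batch 1 and -8.05 in batch 2. It lies on the minus strand at chr9:50751078-50752354 and overlaps Cryab on the plus strand, which differed by -7.02. The library kit does not mark strand, so reads in the overlap cannot be told apart.

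Over the 52 cells, the genes whose log2(TPM + 1) was most like that of Cdh5 were Cd93 (Pearson r 0.97), Gngt2 (0.96), Calcrl (0.95), Rasgrp3 (0.95) and Eng (0.95). Those most like Tnnt2 were Nexn (0.91), Myh7 (0.90), Nebl (0.88), Myh6 (0.88) and Pgam2 (0.88). The points are cells of 2 classes chosen on Cdh5, Tnnt2 and others, so these coefficients mainly rank genes.

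Some genes that differed between the classes host microRNAs. Mature microRNAs were not measured in these cells, and values are for host transcripts alone. The 4 mature sequences below are shown, from RefSeq on GRCm38.p6 with the seed (bases 2 to 8) in capitals, because their hosts are the endothelial gene Egfl7 and 3 myosin genes, of which Myh6 and Myh7 are rule genes and Myh7b was not called. They lie at chr2:26591402-26591423 on the plus strand within Egfl7, chr14:54949072-54949093 on the minus strand within Myh6, chr14:54975710-54975731 on the minus strand within Myh7, and chr2:155622893-155622913 on the plus strand within Myh7b.
miR-126a-3p: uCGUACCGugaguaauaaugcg
miR-208a-3p: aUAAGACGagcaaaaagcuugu
miR-208b-3p: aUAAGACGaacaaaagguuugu
miR-499-5p: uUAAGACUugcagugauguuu
The seeds of miR-208a-3p and miR-208b-3p are the same, and that of miR-499-5p differs from them.

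Egfl7, an endothelial secreted factor and the host of miR-126a, ranged from 0.00 to 10.50 (median 8.83) in endothelial-like cells and from 0.00 to 7.73 (median 1.27) in CM-like cells. In all, 18 of 23 endothelial-like cells were above every CM-like cell, while 16 of 29 CM-like cells reached 1 TPM. Myh6 and Myh7, rule genes that encode cardiac myosin heavy chains, differed by -6.51 and -6.78. Myh7b, the host of miR-499, reached 1 TPM in 1 of 23 and 14 of 29 cells and was not called (-1.79). H19, an imprinted non-coding RNA, was at 10.54 ± 0.44 against 7.80 ± 1.89. Of the 11 host genes listed and tested, Egfl7 and H19 were called higher and Myh6 and Myh7 lower. Meg3 (1.80), Rian (1.06) and Mirg (1.24), non-coding RNAs of 1 imprinted locus, and Mir17hg (0.64) were not called.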

How the data were processed

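The authors prepared Smart-seq2 libraries from single cells and deposited 1 table of TPM values per gene, per the labels quantified with Salmon on mm10. The Salmon version and gene annotation are not given in the sources used here, and a table of TPM keeps no read depth. The table has 143 columns for 170 labelled samples, and the 27 without a column were not analysed here. Columns were matched to samples by title, and sums were 996133 to 999999. From these values log2(TPM + 1) was computed with Python 3.11.15, pandas 2.3.3, numpy 2.4.6, scipy 1.17.1 and matplotlib 3.10.9. Of 40549 genes, 13341 with a TPM above 0 in more than 10 of the 52 cells were tested. Fold changes of low genes are understated by the added 1. A gene was called at a difference of 2 log2 units pooled and in each batch, without a test, since cells of 1 sample are not replicates. The scripts were tested on simulated data. The members, 36 gene lists and alternatives were chosen with earlier results of these data known. Genes named are the rule genes, list members, the 15 other genes furthest apart each way (TPM of at least 1 in at least 50% of the cells of the higher class) and the 5 most like Cdh5 and Tnnt2. Symbols of all 709 named genes were found in GENCODE annotation of GRCm38, 6 by an older symbol. Exact binomial intervals and the limit for a count of 0 (3 cells of n) cover counting error only. Some list members are not reported here by name.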

Additional observations from a re-analysis of the deposited data

How the results depend on the processing

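No paired analysis was possible because the labels do not say what the numbers in the titles stand for, both classes come from 1 group, and nothing was tested across samples. The counts of genes higher in endothelial-like and in CM-like cells moved with the added value (650 and 431 with 0.1, 103 and 93 with 10) and with the size asked for (1114 and 649 at 1 log2 unit, 152 and 112 at 3). Batch 1 alone gave 1740 and 323 and batch 2 alone 462 and 1043, so that the share of calls higher in endothelial-like cells was 84.3% in one and 30.7% in the other, against 58.6% by the rule over both. The balance between the 2 counts therefore has no stable direction. Under the other alternatives the counts stayed within 1.5 times, for example 394 and 247 without the endothelial-like cells with a cardiomyocyte mean of 6 or more. An endothelial threshold of 6 and leaving out cells with over 15% mitochondrial TPM or an erythroid mean of 5 or more were added after the data were seen, and gave 419 and 223, and 370 and 259. None of the 189 called named genes changed sign in 3213 values under 17 alternatives, and 230 values moved by more than 1 SD. Part of this was fixed in advance. The call already asks for the same sign in each batch, and a change of filter leaves a gene's difference as it is. The rule genes that chose the cells are also among the 189.

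Of 609 list medians under alternatives, 557 stayed within 1 SD. With 0.1 added, medians were 8.71 for endothelial rule genes, 5.61 for endothelial markers, 5.4 for endothelial factors, 1.66 for VEGF, 2.41 for Notch, 3.54 for endocardial, 4.14 for flow responsive, 2.94 for matrix, -6.01 for sarcomere, -1.86 for cardiac factors, -2.58 for ion channels, 1.17 for blood and -6.22 for smooth muscle genes. With 10 added they were 3.66 for endothelial and -4.94 for cardiomyocyte rule genes, 1.59 for endothelial markers, 1.23 for endothelial factors, 0.77 for Notch, 1.41 for endocardial, 1.27 for flow responsive, 1.15 for matrix, -2.76 for sarcomere, -0.73 for calcium, -0.55 for ion channel and -2.79 for smooth muscle genes. The log2 ratio of mean TPM gave -4.72 for cardiomyocyte rule genes, 4.44 for endothelial markers, 1.64 for VEGF and -3.05 for ion channels. Without a filter they were 2.84 for endothelial markers, 2.31 for endothelial factors, 0.78 for Notch, 0.44 for vessel receptors and -1.35 for smooth muscle. With 1 TPM in 50% of the cells of a class they were 4.56 for endothelial markers, 3.46 for vessel receptors, 3.59 for endocardial, 2.75 for matrix, -2.52 for ion channels, -1.15 for natriuretic, -1.74 for epicardial and -2.22 for neural crest and epithelial genes. Batch 1 alone gave 2.96 for endothelial markers, -3.46 for smooth muscle and 2.08 for microRNA hosts, and batch 2 alone 0.72 for Notch and 1.13 for matrix. The erythroid median, -0.03, became positive as a ratio of means (2.47), at an endothelial threshold of 2 (0.052), after rescaling without mitochondrial and globin rows (2.40) and without cells of high mitochondrial or erythroid share (0.10), and that of microRNA processing became negative after centring on all genes (-0.10). The causes were not tested.

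Depth is unknown, so 0 TPM in a cell does not show absence. The classes were defined and compared on the same values, batch and class are unevenly crossed, and hand-picked cells from unnamed embryos cannot show how embryos vary.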
